A study of Danio rerio with 2 samples.

Results

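The collagen genes were followed as a set through the vessel cells, the blood cells and the remaining cells of 2 single-cell libraries from the zebrafish tail. Every feature whose symbol had the form of a collagen chain name (col, a type number, a, a chain number and, where present, the letter a or b of a zebrafish gene pair) was taken, which gave 53 of the 27421 features and, after the 2 features each of col19a1 and col6a3 were summed, 51 of 26764 symbols. Of these 51 genes, 49 had at least 1 UMI (unique molecular identifier, 1 counted RNA molecule), 28 had at least 100, and 2 (col10a1a and col24a1) had none. The genes together held 31332 UMIs.

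The embryos were zebrafish of strain AB at 48 h post fertilisation, and they carried the transgenes TgBAC(isl1:TagRFP), which makes a red protein under regulatory sequence of the transcription factor gene isl1, and Tg(dab2:EGFP), which makes a green protein under regulatory sequence of dab2, an endocytosis adaptor gene active in veins and lymphatic vessels. Tails were cut off behind the yolk end and dissociated, and live cells were sorted by flow cytometry. The library labelled isl1-derived holds sorted cells labelled TagRFP+/EGFP+, and the library labelled other holds cells labelled TagRFP-/EGFP+. Both libraries therefore share the strain, both transgenes, the stage and the EGFP gate, which also limits the blood and remaining cells to those that passed that gate.

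Collagens are secreted triple helices built from 3 chains. Type IV collagen forms the sheet-like network of basement membranes, and the α1 and α2 chains encoded by col4a1 and col4a2 are its widespread form, laid down around blood vessels. Types XV and XVIII are proteoglycans of basement membranes, and the cut end of type XVIII is known as endostatin. Type VIII is a network-forming collagen known from vessel walls and the cornea. Types I, II, V and XI are fibrillar collagens of skin, bone, tendon and cartilage, made mainly by mesenchymal cells and, in the young zebrafish, also by skin epithelium. Types XII and XIV sit on the surface of such fibrils.

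Each group was 1 library, so nothing was tested across replicates, no p-value is given, and every interval covers counting error only. After filtering, the libraries labelled isl1-derived and other kept 2015 and 708 cells, with medians of 9757 and 6636 UMIs per cell, and the libraries shared 0 cell barcodes. Reporter RNA and labels were at odds. In CPM (UMIs of a gene per fixed total of UMIs of its library or class), TagRFP was 2.69 in the library labelled isl1-derived and 129 in the library labelled other, and isl1 was 1.97 and 129. The libraries are therefore named by their labels throughout, and no direction between them is read as an effect of isl1 descent.

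Cells were sorted into classes by genes that are not collagens. A cell was endothelial when cdh5, tie1, egfl7 and clec14a together made up at least 10 of every 10000 of its UMIs, blood when 8 blood genes (myb, runx1, gata2b, gata1a, spi1b, ptprc, coro1a, lcp1) reached 5 of every 10000, haemogenic when it passed both, and remaining when it passed neither. The library labelled isl1-derived gave 1322 endothelial, 47 haemogenic, 496 blood and 150 remaining cells, and the library labelled other gave 579, 7, 47 and 75. Here and below, paired values are given for the library labelled isl1-derived first and the library labelled other second. The 4 endothelial gate genes summed to 3191 and 3283 CPM in the endothelial cells, 2075 and 1649 CPM in the haemogenic cells, 69.3 and 136 CPM in the blood cells, and 282 and 272 CPM in the remaining cells. The gene kdrl, a receptor of vascular endothelial growth factor that the gate did not use, stood at 6.04 and 19.9 CPM in blood cells, at 61.9 and 51.5 CPM in the remaining cells, and at 293 (stab2-high) to 718 CPM (esm1-high) over the endothelial subsets of the library labelled isl1-derived.

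In endothelial cells 6 collagens stood highest: both common type IV chains, both type XVIII genes, col8a2 and col11a1b. The level of col4a1 was 263 CPM (95% Poisson interval 253 to 273) and 253 CPM (238 to 269), and that of its partner col4a2 was 233 CPM (224 to 242) and 261 CPM (245 to 277). The level of col18a1a was 213 CPM (205 to 222) and 226 CPM (211 to 241). These 3 levels had separate intervals in the library labelled isl1-derived, whereas in the library labelled other the intervals of col4a1 and col4a2 overlapped each other and that of col4a1 overlapped that of col18a1a. Because the reads were counted at RNA 3′ ends without scaling for length, such an order is one of UMIs and also depends on how well each 3′ end is annotated.

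The second type XVIII gene, col18a1b, stood at 83.4 CPM (78.1 to 89.0) and 150 CPM (139 to 162). The type VIII chain gene col8a2 stood at 122 CPM (116 to 129) and 113 CPM (102.5 to 123), and its levels overlapped between the libraries. The fibrillar chain gene col11a1b reached 46.4 CPM (42.5 to 50.6) and 74.2 CPM (66.1 to 83.0). Of these 6 genes, col4a2, col18a1b and col11a1b had intervals that did not meet between the libraries.

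A step lower came col14a1a (40.5 and 34.4 CPM), the type I chain genes col1a2 (33.2 and 26.9 CPM) and col1a1b (25.5 and 16.7 CPM), the type V chain gene col5a1 (21.6 and 18.2 CPM) and the pair col12a1b (19.1 and 33.7 CPM) and col12a1a (18.4 and 28.1 CPM). The other type IV chains were near the floor in these cells: col4a6 stood at 3.92 and 3.15 CPM, col4a5 at 1.28 and 2.18 CPM, col4a3 had 4 and 0 UMIs, and col4a4 had 9 and 6 UMIs.

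**Figure D1:**
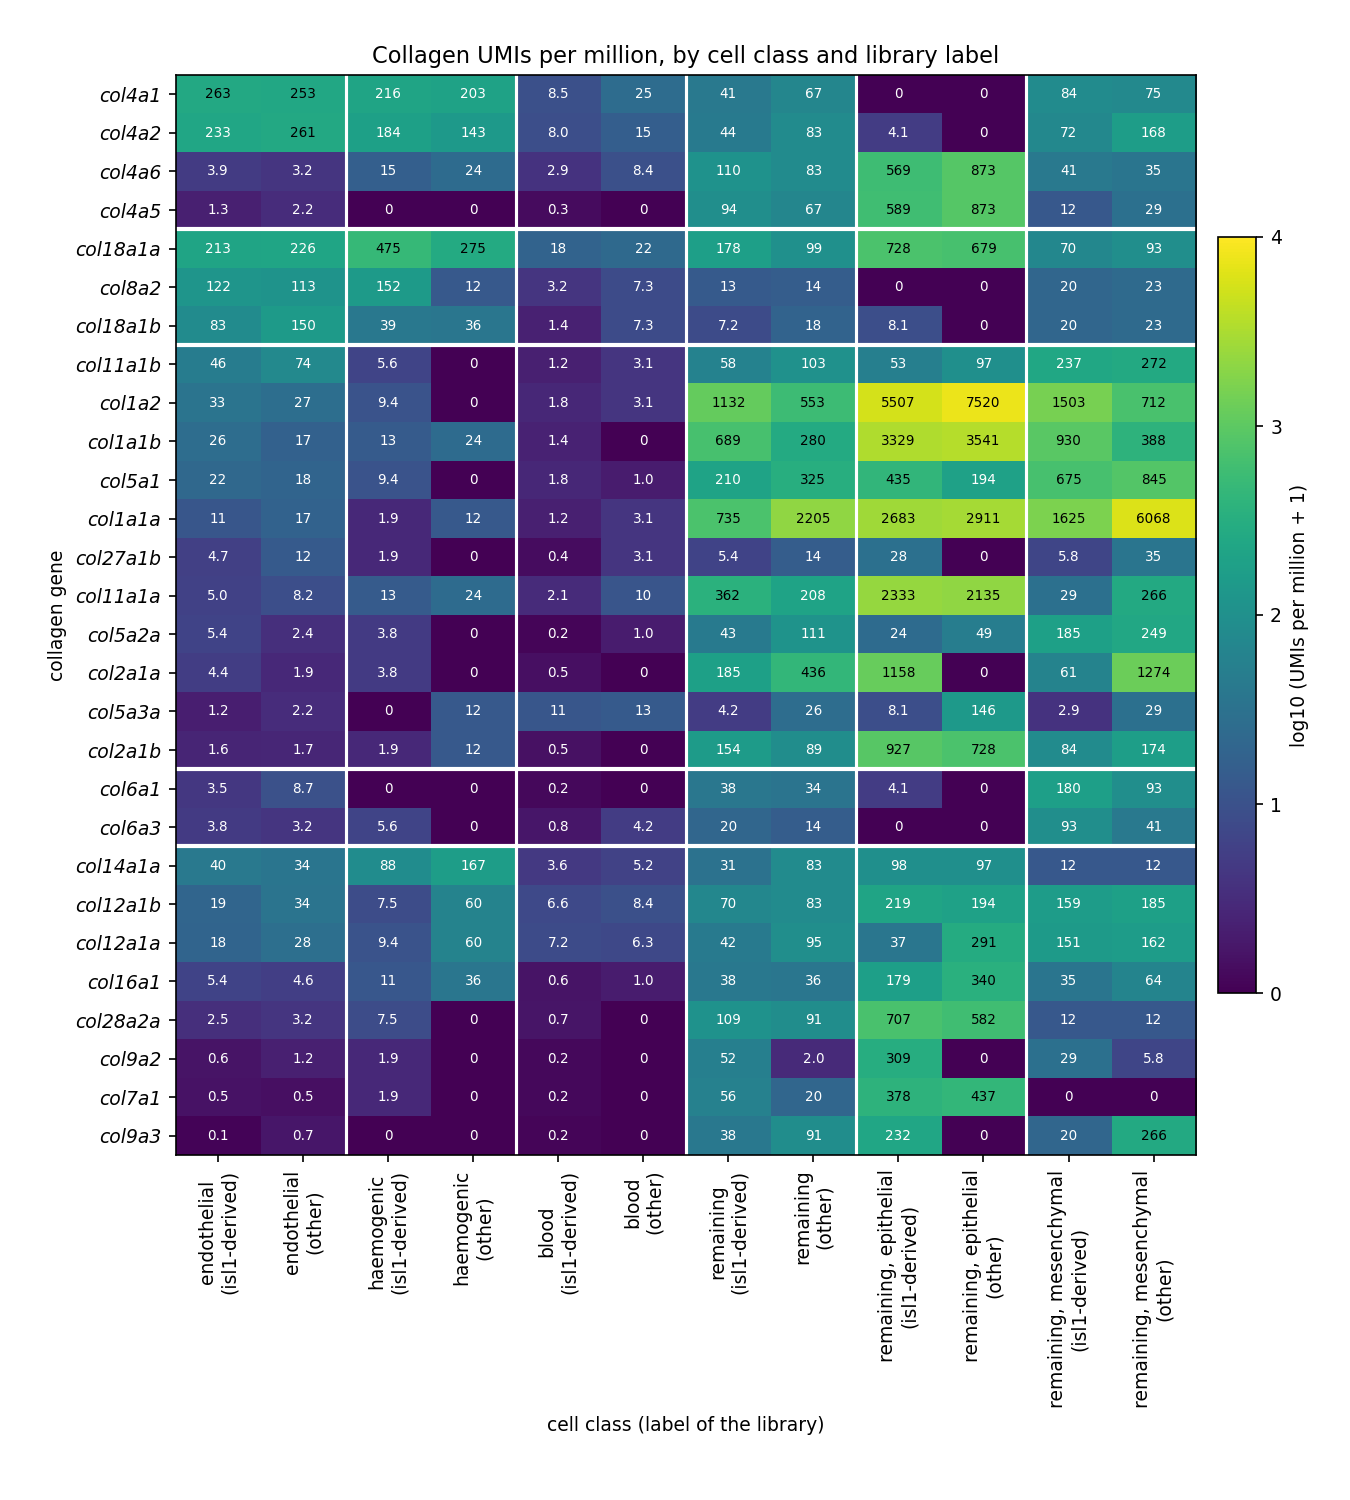
Level of the 28 collagens with at least 100 UMIs (rows, grouped by family) in the endothelial, haemogenic, blood and remaining cells and in 2 panels of the remaining cells, each in both libraries (columns). Colour is log10 of CPM + 1 and the number in each cell is the CPM. The type IV genes col4a1 and col4a2 stand at 233 to 263 CPM in endothelial cells, and the type I genes are highest in the remaining epithelial and mesenchymal cells.

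By family, type IV made up 42.4% and 39.3% of the collagen UMIs of endothelial cells, and types VIII, XV and XVIII together 35.4% and 36.9%. Fibrillar collagens made up 13.6% and 13.7%. Collagens as a whole summed to 1186 and 1327 CPM in endothelial cells, 1291 and 1112 CPM in haemogenic cells, 88.1 and 158 CPM in blood cells, and 4793 and 5519 CPM in the remaining cells. In the remaining cells 75.8% and 79.3% of the collagen UMIs were fibrillar and 6.1% and 5.6% were type IV.

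Nearly every endothelial cell carried a collagen transcript. At full depth 96.1% and 97.9% of endothelial cells had at least 1 collagen UMI, against 78.0% and 85.1% of blood cells, but the median depth was 7802 and 6433 UMIs in endothelial cells and 26807.5 and 21537 in blood cells. With every cell thinned to 2000 UMIs, the shares were 81.0% and 83.8% in endothelial cells, 85.1% and 85.7% in haemogenic cells, 14.5% and 26.7% in blood cells and 55.1% and 64.7% in the remaining cells. At that depth col4a1 alone was seen in 39.8% and 36.1% of endothelial cells and in 1.62% and 6.67% of blood cells, against 73.9% and 68.9%, and 15.7% and 25.5%, at full depth. Thinning left out 62 and 30 endothelial cells and 1 and 2 blood cells that held fewer UMIs.

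**Figure D2:**
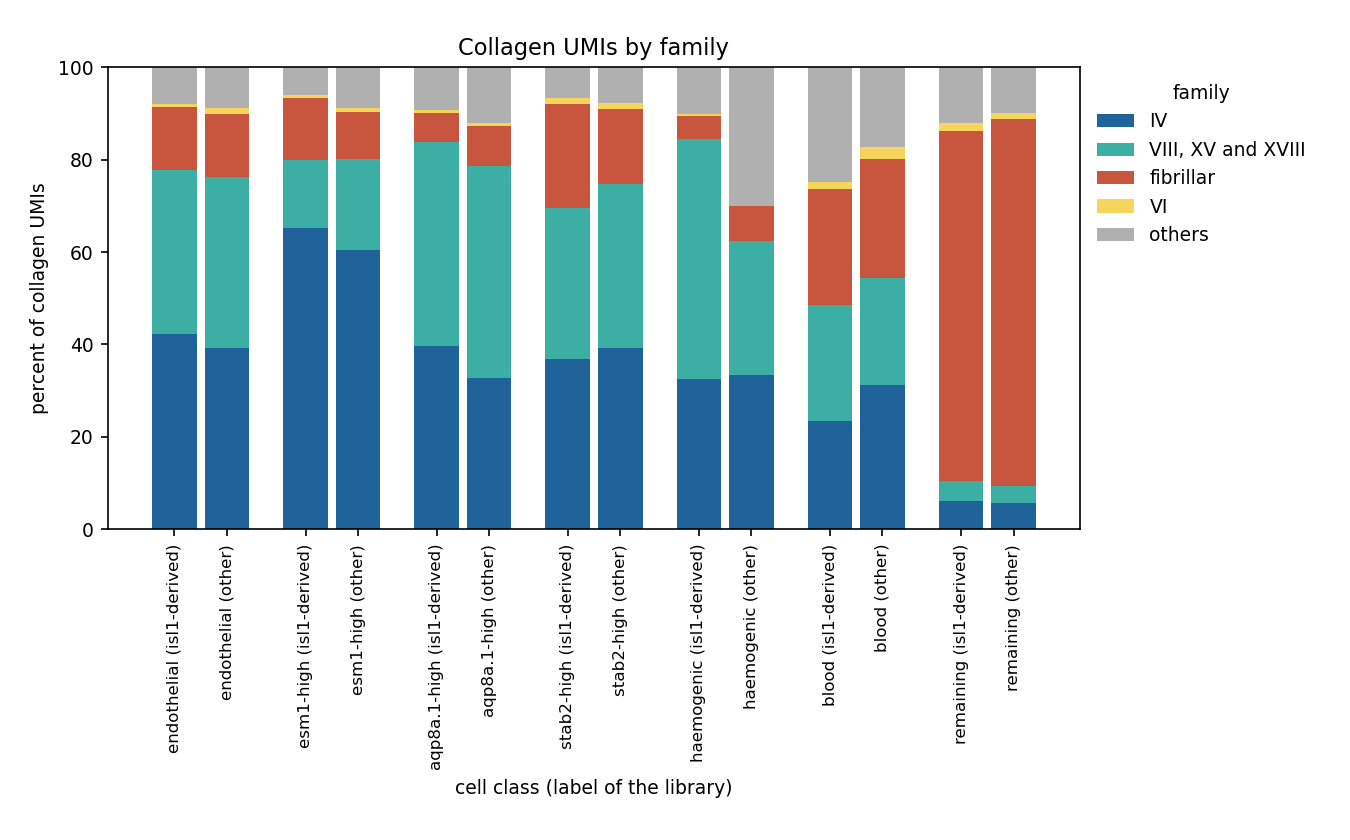
Share of all collagen UMIs (percent, vertical axis) that belongs to each collagen family, as stacked bars for the endothelial cells, 3 endothelial subsets, and the haemogenic, blood and remaining cells of each library. Type IV takes 42.4% and 39.3% in endothelial cells, and fibrillar collagens take 75.8% and 79.3% in the remaining cells.

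The collagens that stood highest in endothelial cells were far lower in blood cells. A gene was counted where both sums together held at least 50 UMIs in each library, and called higher or lower by size alone, at a CPM ratio of 2 or 0.5 in both libraries. Of 14 collagens measured in both libraries 14 were higher in endothelial than in blood cells and 0 were lower. Over all genes measured in both libraries, 37.2% were higher and 13.5% lower by that rule. Within the single libraries 19 of 21 measured collagens were higher and 1 lower (all genes 36.8% and 18.9%) in the library labelled isl1-derived, and 14 of 14 were higher (41.1% higher and 16.4% lower among all genes) in the library labelled other. The median log2 ratio of the measured collagens was 3.50 and 3.32, against 0.45 and 0.55 over all genes.

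The type XVIII gene col18a1b had the widest gap by the mean log2 ratio of the libraries, with 83.4 CPM in endothelial and 1.36 CPM in blood cells of the library labelled isl1-derived, a ratio of 61.4 (95% interval 38.6 to 104), and 150 against 7.33 CPM, a ratio of 20.5 (9.89 to 51.2), in the library labelled other. The fibrillar gene col11a1b followed with ratios of 38.4 (23.4 to 67.8) and 23.6 (8.01 to 115), and col8a2 with 38.5 (28.3 to 53.7) and 15.4 (7.40 to 38.4). The type I gene col1a1b was 17.8-fold higher (11.2 to 30.0) in the first library. In the second, where blood cells held 0 UMIs, the lower bound of its ratio was 4.22, and a floor of 3 counts in that sum gave 5.33. All of these intervals lay above 2 in both libraries.

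For the type IV chain gene col4a1 the ratios were 30.8 (25.5 to 37.5) and 10.1 (6.74 to 15.8), and for col18a1a they were 12.1 (10.6 to 14.0) and 10.3 (6.68 to 16.7). Nearer to blood levels were the type XII genes, with col12a1a 2.54-fold and 4.48-fold higher in endothelial cells and col12a1b 2.87-fold and 4.03-fold. In single libraries, col4a6 (1.37, first library), col11a1a (2.37 with an interval of 1.48 to 3.89, first library) and the fibrillar col27a1b (3.94, second library) were also nearer. The col27a1b value rests on 3 blood UMIs, with an interval of 1.27 to 19.7. In the second library col4a6 was under the minimum, with 13 endothelial and 8 blood UMIs and a ratio of 0.377 (0.145 to 1.05). So was col11a1a, with 34 and 10 UMIs and a ratio of 0.788 (0.381 to 1.79).

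RNA set free from broken cells gives UMIs in cells that do not make a transcript, so the blood level of each collagen was set beside that of 4 vessel genes (kdrl, aqp8a.1, stab2 and esm1, chosen after their values were seen). As a percentage of their endothelial level these stood in blood at between 1.19% (aqp8a.1) and 2.89% (stab2) in the first library and between 2.04% (esm1) and 7.5% (stab2) in the second. The sort genes dab2 (4.98% and 8.30%) and GFP (5.22% and 7.25%) may be present in cells that passed the EGFP gate. Within the range of the 4 vessel genes lay col18a1b (1.63% and 4.88%), col8a2 (2.60% and 6.51%) and col11a1b (2.60% and 4.23%). Their UMIs in blood cells are therefore not read as expression, and the source of these UMIs was not tested. The values of the type IV genes were 3.24% and 9.91% for col4a1 and 3.43% and 5.62% for col4a2, with intervals that took in the top of the range in both libraries.

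Above the range in both libraries were also col18a1a (8.24% and 9.74%), col14a1a (8.95% and 15.2%), col12a1b (34.8% and 24.8%) and col12a1a (39.3% and 22.3%). In the library labelled other col18a1a was no further above the range than col4a1 (9.91%). In the library labelled other the col18a1a and col14a1a values rest on 21 and 5 blood UMIs, with intervals of 6.0% to 15% and 4.86% to 36.3% that hold the top of the range. The remaining cells carried col18a1a at 178 and 99.1 CPM and col14a1a at 31.2 and 83.3 CPM. They carried col12a1b at 70.3 and 83.3 CPM and col12a1a at 42.1 and 95.2 CPM. The range was set from vessel genes only, and whether the blood UMIs above it are expression or free RNA was not tested. The level of col18a1a in blood cells was 17.6 and 22 CPM, with a UMI in 25.2% and 25.5% of them, and in the blood cells that passed the progenitor panel it was 33.4 and 21.7 CPM. Without the 3 leading cells col18a1a in blood cells was at 15.7 and 12.7 CPM.

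The collagen that stood the other way round by a factor of 2 in the library labelled isl1-derived was col5a3a. The type V chain gene col5a3a was at 1.19 CPM (13 UMIs) in endothelial and 10.9 CPM (144 UMIs, in 58 cells) in blood cells of the library labelled isl1-derived, a ratio of 0.109 (0.057 to 0.193), and at 2.18 CPM (9 UMIs) and 12.6 CPM (12 UMIs, in 5 cells) in the library labelled other, where its total was under the minimum of 50 UMIs. It was singled out after its values were seen. In the first library its level was 50.5 CPM in the 10 blood cells with erythroid markers, from 16 UMIs in 5 cells, and 7.8 to 10.6 CPM in the progenitor, myeloid and unassigned blood cells. In the second library 3 cells held 83.3% of its blood UMIs.

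**Figure D3:**
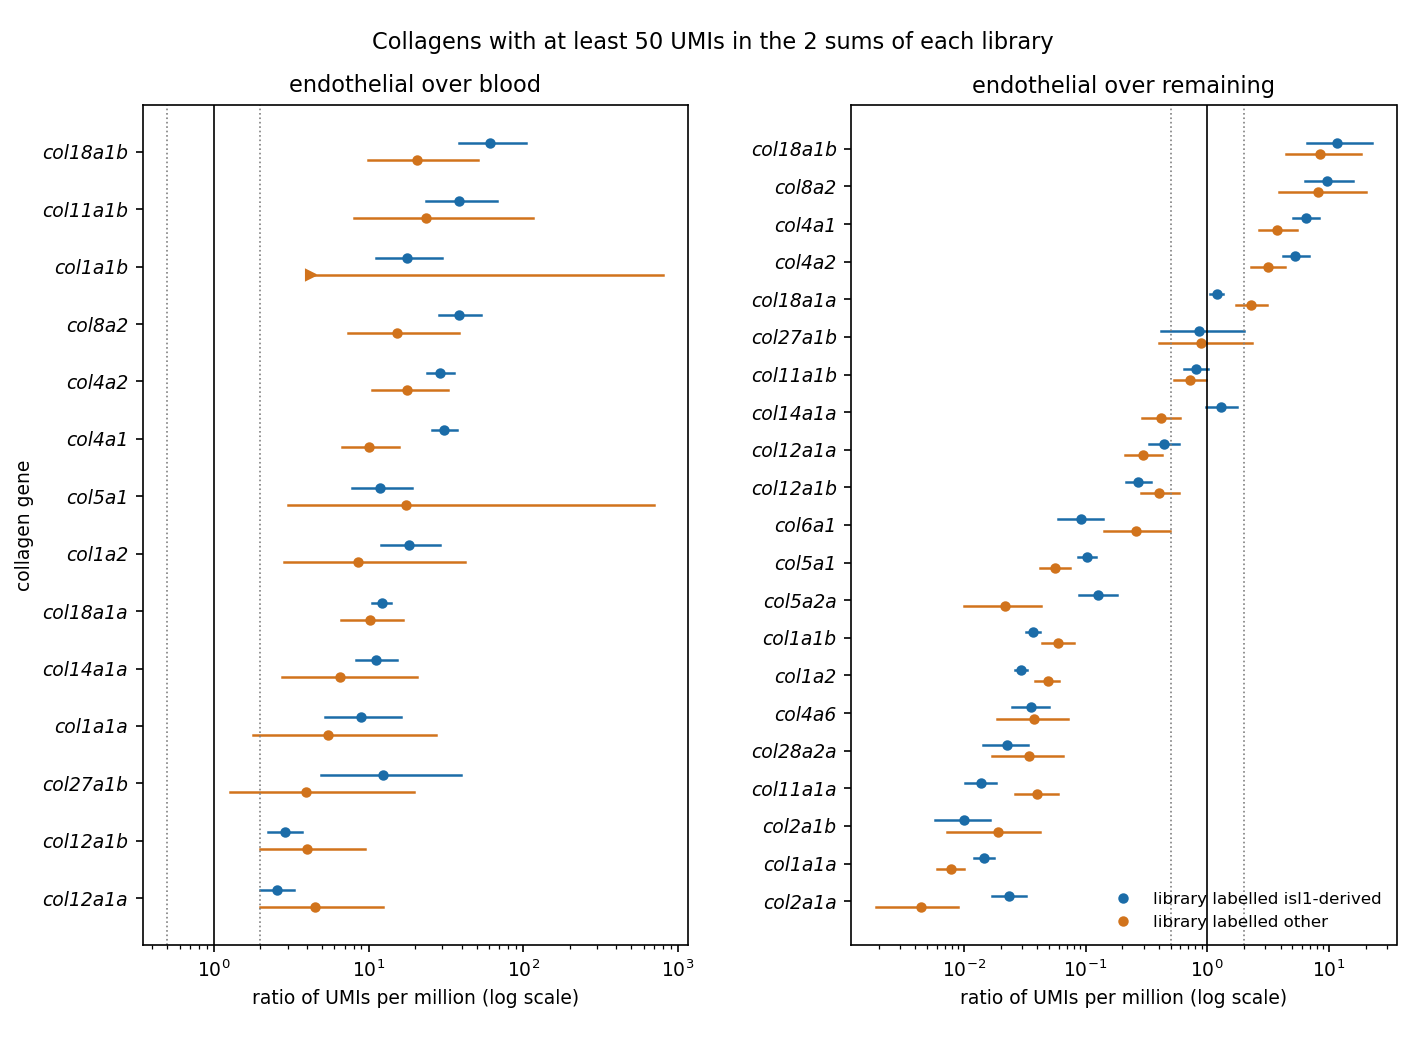
Ratio of CPM in endothelial cells over blood cells (left, 14 collagens) and over the remaining cells (right, 21 collagens), for collagens measured in both libraries, on a log axis with exact 95% intervals and dotted lines at 0.5 and 2. A triangle marks the lower bound of col1a1b in the library labelled other, where blood cells held 0 UMIs. Every collagen on the left lies above 2, while on the right 4 lie above 2 and 13 below 0.5 in both libraries.

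Against the remaining cells col4a1, col4a2, col18a1b and col8a2 were higher in endothelial cells, and most fibrillar collagens were lower. Of 21 collagens measured in both libraries 4 were higher in endothelial cells and 13 were lower, where 16.7% and 2.36% of all genes were. Without the 3 leading cells of each gene in each sum, the count of lower ones went from 13 to 4. In the library labelled isl1-derived alone the counts were 4 higher and 23 lower of 31 (27.2% and 9.93% of all genes), and in the library labelled other 5 and 14 of 21 (23.6% and 11.4% of all genes). The median log2 ratio of the collagens was -4.75 and -1.97, against 0.31 and 0.12 over all genes.

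The 4 higher genes were col18a1b, with ratios of 11.6 (6.59 to 22.5) and 8.42 (4.40 to 18.5), col8a2 with 9.68 and 8.11, col4a1 with 6.43 (5.06 to 8.31) and 3.76 (2.67 to 5.46), and col4a2 with 5.31 and 3.13. The other type XVIII gene, col18a1a, was close to the remaining cells in one library, at a ratio of 1.2 (1.06 to 1.35), and higher in the other, at 2.28 (1.71 to 3.09). The fibrillar gene col11a1b did not part the classes by a factor of 2, with ratios of 0.805 (0.646 to 1.011) and 0.720 (0.535 to 0.986).

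The 13 lower genes were fibrillar (col1a1a, col1a1b, col1a2, col2a1a, col2a1b, col5a1, col5a2a, col11a1a) and of other types (col4a6, col6a1, col12a1a, col12a1b, col28a2a). The type II genes of cartilage and notochord sheath had ratios of 0.024 and 0.0044 (col2a1a) and of 0.010 and 0.019 (col2a1b). The type I genes col1a1a, col1a1b and col1a2 had ratios of 0.015 and 0.0078, of 0.037 and 0.060, and of 0.029 and 0.049. The type XI gene col11a1a, whose paralogue col11a1b was among the endothelial collagens, had ratios of 0.014 and 0.040, and without the 3 leading cells its log2 ratio in the library labelled other went from -4.66 to -1.45. The basement membrane chain gene col4a6 had ratios of 0.036 and 0.038.

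The remaining cells were few and their collagen came from few cells. The level of col1a2 there was 1131.5 and 553 CPM, that of col1a1a 735 and 2205 CPM, and that of col1a1b 689 and 280 CPM. In the library labelled isl1-derived 3 cells held 33.8% to 40.3% of the UMIs of these genes, and in the library labelled other 77.9% to 79.4%. Without those 3 cells col1a2 stood at 781 and 128 CPM and col1a1a at 459 and 519 CPM, still above the endothelial levels. For col2a1a in the library labelled other, all 220 UMIs of the remaining cells were in 1 cell with mesenchymal markers.

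Split by marker panels, the remaining cells held 17 and 4 epithelial, 43 and 28 mesenchymal and 0 and 23 neural cells, with 86 and 20 cells of no panel. The 4 epithelial cells of the library labelled other held 20613 UMIs in all, so the lower levels there rest on few UMIs. The epithelial cells had the type I genes col1a2 and col1a1b at the highest level of any class, 5507 and 7520 CPM and 3329 and 3541 CPM, and col1a1a at 2683 and 2911 CPM. The second type IV pair was there too, with col4a5 at 589 and 873 CPM and col4a6 at 569 and 873 CPM, as were the anchoring-fibril collagen col7a1 (378 and 437 CPM) and the transmembrane collagen of hemidesmosomes col17a1a (215 and 340 CPM). The vessel pair member col4a1 had 0 UMIs in both, which allows up to 12.2 and 146 CPM at 3 counts, and col8a2 likewise had 0 UMIs. The type IV chains of epithelial cells were thus col4a5 and col4a6, and those of endothelial cells col4a1 and col4a2, each at a ratio of over 10 to its level in the other class in the library labelled isl1-derived.

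The mesenchymal cells carried col1a1a at 1625 and 6068 CPM, col1a2 at 1503 and 712 CPM and col5a1 at 675 and 845 CPM, together with the beaded-filament genes col6a1 (180 and 92.6 CPM) and col6a2 (125 and 52.1 CPM). Their col4a1 level was 84.0 and 75.3 CPM, beside all 4 endothelial gate genes detected and summing to 504 and 394 CPM. Their medians were 5.34 and 2.66 endothelial gate UMIs and 2.92 and 8.58 stab2 UMIs per 10000. The mesenchymal panel includes postnb, which stood at 904 and 1683 CPM in endothelial cells and at 573 and 652 CPM in the remaining cells. A cell under the endothelial gate can pass this panel on postnb alone, so the set may hold endothelial-like cells. The part of endothelial RNA or cells in the col4a1 and other levels of this set was not tested. The cells of no panel summed to 328 and 970 CPM of collagen, against 6540 and 11921 CPM in the mesenchymal and 21810 and 22898 CPM in the epithelial cells.

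The cells that passed both the endothelial and the blood gate had a summed collagen level close to that of endothelial cells. Of 14 collagens measured in both libraries 1 was higher and 5 lower in haemogenic than in endothelial cells, where 3.83% and 10% of all genes were. The library labelled isl1-derived alone had 5 higher and 7 lower of 19 (9.56% and 16.6% of all genes), and the library labelled other 2 and 6 of 14 (12.5% and 33.7%). Of the 5 lower ones col1a2, col5a1 and col27a1b had 0 UMIs in the 7 cells of the library labelled other, with intervals of the ratio that reach 1.67, 2.48 and 3.7. In the library labelled isl1-derived they had 5, 5 and 1 UMIs, with intervals that reach 0.665, 1.03 and 2.35. A factor of 2 is therefore not shown for them in either library. The higher one was col14a1a, at 88.2 against 40.5 CPM, a ratio of 2.18 (1.58 to 2.95), and at 167 against 34.4 CPM, a ratio of 4.86 (2.59 to 8.42). Those values rest on 47 and 14 UMIs, of which 3 cells held 55.3% and 92.9%. Without these cells the log2 ratio was 0.21 in the library labelled isl1-derived and -0.95 in the library labelled other, so its direction there hangs on 3 cells.

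The type XVIII pair parted in these cells. Levels of col18a1a were 475 against 213 CPM, a ratio of 2.22 (1.95 to 2.53), and 275 against 226 CPM, a ratio of 1.22 (0.769 to 1.84). Its paralogue col18a1b was lower in both libraries, with ratios of 0.472 (0.291 to 0.726) and 0.239 (0.0491 to 0.701). The share of col18a1a in the UMIs of the pair was therefore 92.3% and 88.5% in haemogenic cells, against 71.9% and 60.0% in endothelial cells. A high share was not particular to them, at 92.8% and 75.0% in blood and 96.1% and 84.7% in the remaining cells.

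The type IV genes had ratios to their endothelial level between 0.5 and 1. They were 0.821 (0.675 to 0.989) and 0.802 (0.465 to 1.29) for col4a1 and 0.789 (0.638 to 0.966) and 0.550 (0.283 to 0.965) for col4a2. In the library labelled other they rest on 17 and 12 haemogenic UMIs, with intervals that reach below 0.5. The type VIII gene col8a2 went with the library, at ratios of 1.24 (0.982 to 1.56) and 0.106 (0.0027 to 0.595), the latter from 1 UMI. The fibrillar gene col11a1b was among the lowest, with 3 UMIs and a ratio of 0.121 (0.025 to 0.356) in the first library. In the second it had 0 UMIs, with an interval of the ratio that reaches 0.598, short of a factor of 2. The doublet caller removed 5 of 52 haemogenic cells in the first library and none of the 7 in the second, and a haemogenic barcode made of an endothelial and a blood cell cannot be told apart from 1 cell of mixed expression.

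Endothelial cells were then divided by esm1 (endocan, a marker of tip cells of sprouting vessels in mammals), aqp8a.1 (an aquaporin water channel) and stab2 (a scavenger receptor of venous and sinusoidal endothelium). The esm1-high subset held 237 and 33 cells, the aqp8a.1-high subset 309 and 64, the stab2-high subset 441 and 372, the subset high in both aqp8a.1 and stab2 25 and 19, and the subset low in both 310 and 91. The esm1-high cells were taken first, so the aqp8a.1-high subset holds no esm1-high cell, while esm1-high cells themselves had a median aqp8a.1 of 92.7 and 59 per 10000 UMIs, above the aqp8a.1 gate of 50. Total collagen was highest in the aqp8a.1-high cells, at 1695 and 2422 CPM, against 1001 and 1261 CPM in esm1-high and 1078 and 1171 CPM in stab2-high cells. Type IV made up 65.1% and 60.5% of the collagen of esm1-high cells, 39.7% and 32.7% of that of aqp8a.1-high cells and 36.7% and 39.1% of that of stab2-high cells.

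The type IV pair was shared by esm1-high and aqp8a.1-high cells and lower in stab2-high and both-low cells. The level of col4a1 was 364 and 397 CPM in esm1-high, 357 and 403 CPM in aqp8a.1-high, 195 and 217 CPM in stab2-high and 198 and 256 CPM in both-low cells. That of col4a2 was 285 and 357, 307 and 381, 195 and 235, and 174 and 268 CPM in the same order. The small subset high in both aqp8a.1 and stab2 was not set in this order. There col4a1 and col4a2 had 49 and 67 of 253469 UMIs in the library labelled isl1-derived. In the library labelled other they had 35 and 29 of 155260 UMIs. The ratio of esm1-high to aqp8a.1-high cells was 1.02 (0.923 to 1.13) and 0.985 (0.756 to 1.27) for col4a1, and neither interval reached a factor of 2.

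The aqp8a.1-high cells outside the esm1-high subset had the highest col14a1a, col8a2 and col18a1a, and esm1-high cells, which also carried aqp8a.1, did not share those levels. The fibril-surface collagen col14a1a was at 120 and 180 CPM there, against 3.22 and 8.61 CPM in stab2-high and 12.9 and 26.4 CPM in esm1-high cells. The type VIII gene col8a2 was at 261 and 418 CPM, against 103 and 84.6 CPM in stab2-high and 15.9 and 48.5 CPM in esm1-high cells. The levels of col18a1a were 399 and 530 CPM, against 143 and 169 CPM and 64.2 and 106 CPM. In all 3 genes the aqp8a.1-high level was the highest of the 3 subsets in both libraries.

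In the comparison of stab2-high with aqp8a.1-high cells 1 of 12 collagens measured in both libraries was higher and 3 were lower, where 8.69% and 3.34% of all genes were. The library labelled isl1-derived alone had 3 higher and 3 lower of 13 (11.4% and 5.72% of all genes), and the library labelled other 1 and 4 of 12 (13% and 5.62%). The lower ones were col14a1a, with ratios of 0.027 (0.013 to 0.049) and 0.048 (0.029 to 0.077), col8a2, with 0.393 (0.344 to 0.449) and 0.202 (0.166 to 0.247), and col18a1a, with 0.359 (0.321 to 0.400) and 0.319 (0.272 to 0.374). The next, col4a1, was at 0.547 (0.494 to 0.606) and 0.538 (0.455 to 0.639), short of a factor of 2. The median log2 ratio of the collagens was 0.22 and -0.80, against 0.03 and 0.01 over all genes.

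In the comparison of esm1-high with aqp8a.1-high cells 0 of 6 were higher and the same 3 genes were lower, where 1.65% and 3.92% of all genes were. The single libraries had 1 higher and 3 lower of 11 (3.5% and 4.07% of all genes) and 0 and 3 of 6 (4.7% and 6.29%). The ratios were 0.061 and 0.116 for col8a2, 0.108 and 0.147 for col14a1a and 0.161 and 0.200 for col18a1a, while col18a1b was at 0.797 (0.637 to 0.993) and 0.579 (0.338 to 0.952). The cells low in both markers, compared after the values were seen, had 0 of 7 higher and 2 lower than aqp8a.1-high cells (1.7% and 3.14% of all genes). The single libraries had 1 higher and 2 lower of 12 (5.42% and 3.88% of all genes) and 0 and 3 of 7 (3.94% and 5.98%). The genes lower in both were col14a1a, with ratios of 0.310 and 0.218, and col8a2, with 0.364 and 0.117.

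The transcripts of col8a2 and col14a1a were often seen in the same cells. Of the 153 and 49 endothelial cells with a col14a1a UMI, 112 and 33 also had a col8a2 UMI, 73.2% and 67.3%, whereas 30.5% and 27.6% of all endothelial cells had one. In aqp8a.1-high cells these shares were 80.2% and 88.0%, against 48.5% and 56.3% of all cells of that subset. Pairs of genes were chosen after their values were seen, and cells with more UMIs have more of both.

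**Figure D4:**
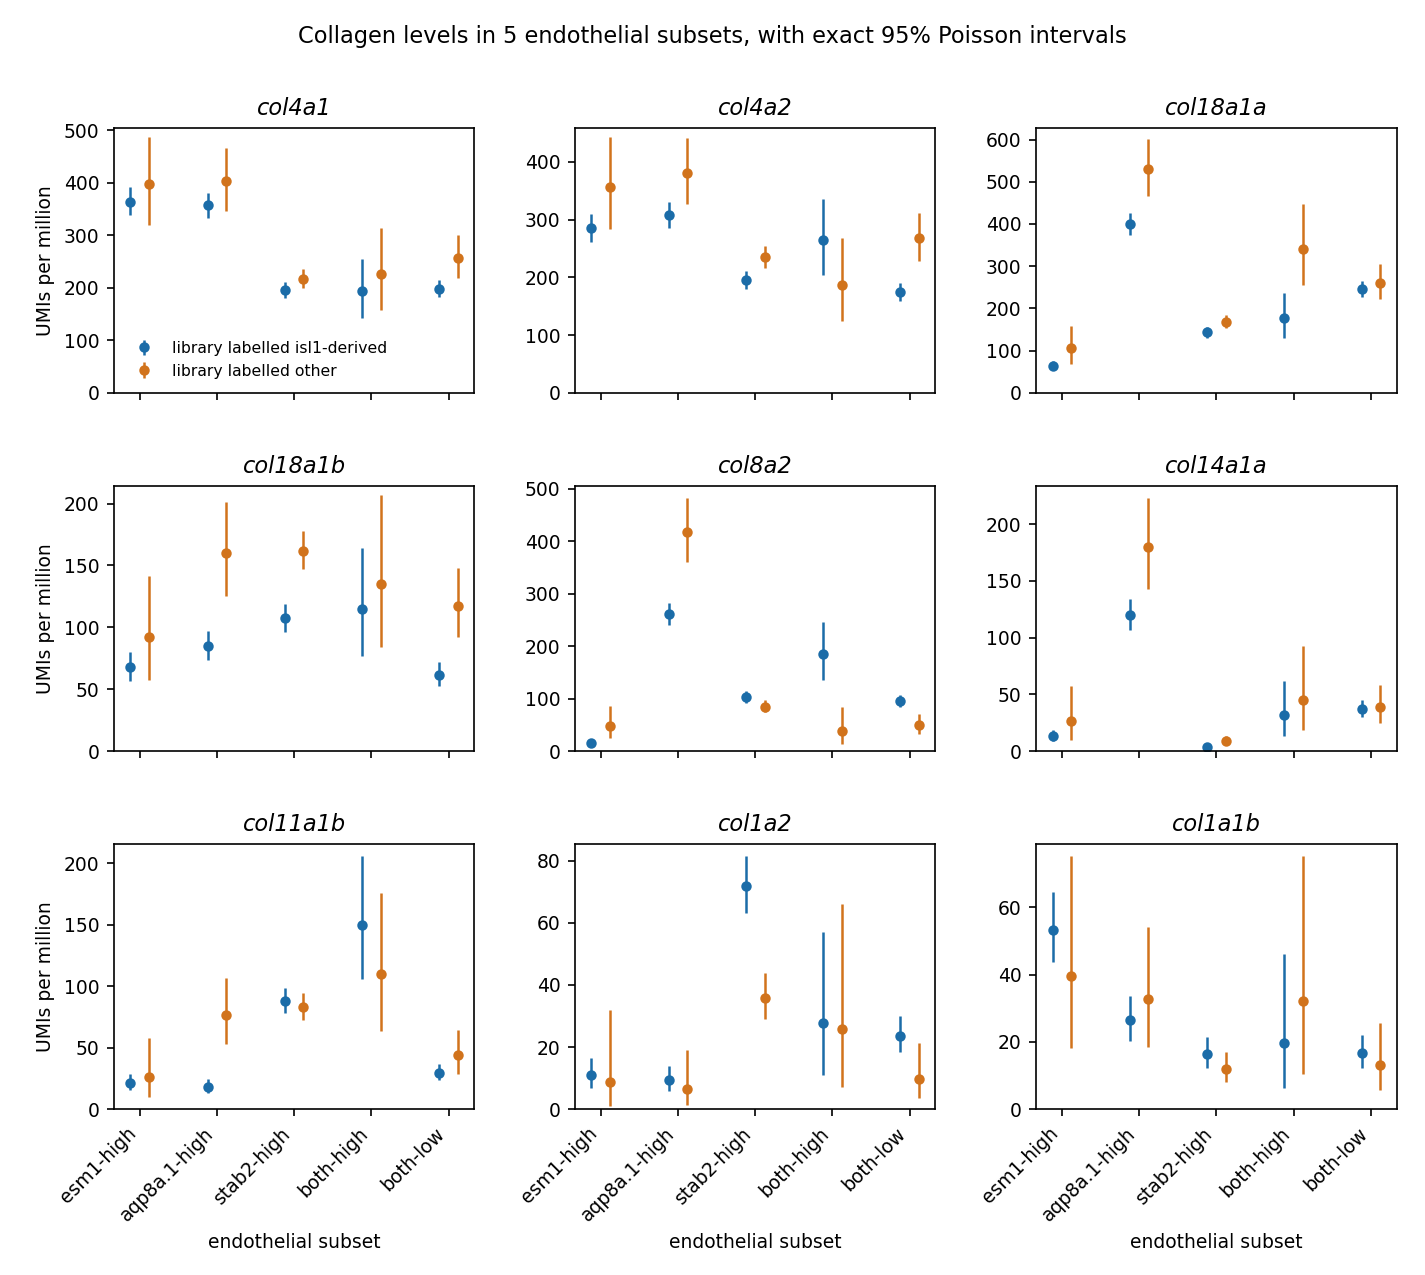
Level in CPM of 9 collagens in the 5 endothelial subsets of each library, with exact 95% Poisson intervals. In both libraries col14a1a, col8a2 and col18a1a are highest in aqp8a.1-high cells, col1a2 is highest in stab2-high cells, and col4a1 is alike in esm1-high and aqp8a.1-high cells.

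The collagen higher in stab2-high than in aqp8a.1-high cells by a factor of 2 in both libraries was a type I chain gene. The level of col1a2 was 71.8 and 35.9 CPM in stab2-high cells, against 9.35 and 6.57 CPM in aqp8a.1-high and 11 and 8.82 CPM in esm1-high cells, and its ratio to aqp8a.1-high cells was 7.68 (5.00 to 12.3) and 5.47 (1.82 to 27). In both-low cells col1a2 was at 23.6 and 9.79 CPM. In the cells high in both aqp8a.1 and stab2, col1a2 had 7 UMIs (27.6 CPM) in the first library and 4 UMIs in the second. A UMI of it was seen in 27.7% and 16.4% of stab2-high and in 5.83% and 4.69% of aqp8a.1-high cells. The α1 chain genes did not follow in both libraries. The level of col1a1a was 15.2 and 16.8 CPM in stab2-high and 8.13 and 17.5 CPM in aqp8a.1-high cells, a ratio of 1.87 (1.1 to 3.31) and 0.962 (0.449 to 2.36). That of col1a1b was at 16.4 and 12 CPM in stab2-high, 26.4 and 32.8 CPM in aqp8a.1-high and 53.3 and 39.7 CPM in esm1-high cells.

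The balance of col1a2 and col1a1b therefore differed over the subsets. Of their joint UMIs col1a2 held 81.4% and 75.0% in stab2-high cells, 26.1% and 16.7% in aqp8a.1-high cells and 17.1% and 18.2% in esm1-high cells. In the library labelled other the last 2 subsets held only 18 and 11 joint UMIs, with intervals of 3.6% to 41.4% and 2.3% to 51.8%. In both-low cells the share was 58.8% and 42.9%, from 114 and 14 joint UMIs. In the remaining cells the share was 62.3% and 68.0% in epithelial and 61.8% and 64.7% in mesenchymal cells. Set against col1a1a, the share of col1a2 was 67.2% and 72.1% in epithelial and 48.1% and 10.5% in mesenchymal cells, and 82.5% and 68.1% in stab2-high and 53.5% and 27.3% in aqp8a.1-high cells. The 27.3% rests on 11 joint UMIs, and its interval (6.0% to 61.0%) overlaps that of stab2-high cells (59.7% to 75.7%). Of the 206 and 75 endothelial cells with a col1a2 UMI, 33 and 10 also had one of col1a1b, 16.0% and 13.3%, against 13.3% and 9.15% of all endothelial cells. For a marker of mesenchymal RNA in the subsets, 16 mesenchymal genes summed to 1810 and 2125 CPM in stab2-high, 748 and 1066 CPM in aqp8a.1-high and 202 and 719 CPM in esm1-high cells. Of the 16, 16 and 14 were detected in stab2-high cells (twist2 and lum at 0 in the second library), 14 and 5 in aqp8a.1-high and 11 and 7 in esm1-high cells. Detection rises with the depth of a sum, so these counts are not read as a difference between subsets. The sums held 3412207 and 2671101 UMIs in stab2-high, 2458600 and 456637 in aqp8a.1-high and 2008074 and 226859 in esm1-high cells. Most UMIs of the 16 genes were postnb. Without postnb and ogna (a split chosen after the values were seen) the other 14 summed to 36.6 and 28.8, 19.5 and 13.1, and 11.5 and 26.4 CPM, against 559 and 2663 CPM in the remaining cells. Of the genes left out, ogna was at 112 and 73.0 CPM in stab2-high, 9.35 and 13.1 CPM in aqp8a.1-high and 3.49 and 13.2 CPM in esm1-high cells. In the remaining cells it was at 76.9 and 103 CPM. The level of postnb was 1661 and 2023, 719 and 1040, and 187 and 679 CPM in these subsets, and 573 and 652 CPM in the remaining cells. The part of mesenchymal RNA in the col1a2 level was not tested.

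The type XVIII pair was balanced differently too. The share of col18a1a in the pair was 82.5% and 76.8% in aqp8a.1-high, 57.2% and 51.1% in stab2-high and 48.7% and 53.3% in esm1-high cells, and 98.9% and 100% in the epithelial cells. Within type IV the pair kept an even balance, with col4a1 at 53.0% and 49.3% of the endothelial UMIs of col4a1 and col4a2, which lie next to each other in the genome in the reference gene table. Of the 977 and 399 endothelial cells with a col4a1 UMI, 770 and 315 also had one of col4a2, 78.8% and 78.9%, against 71.0% and 72.2% of all endothelial cells.

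**Figure D5:**
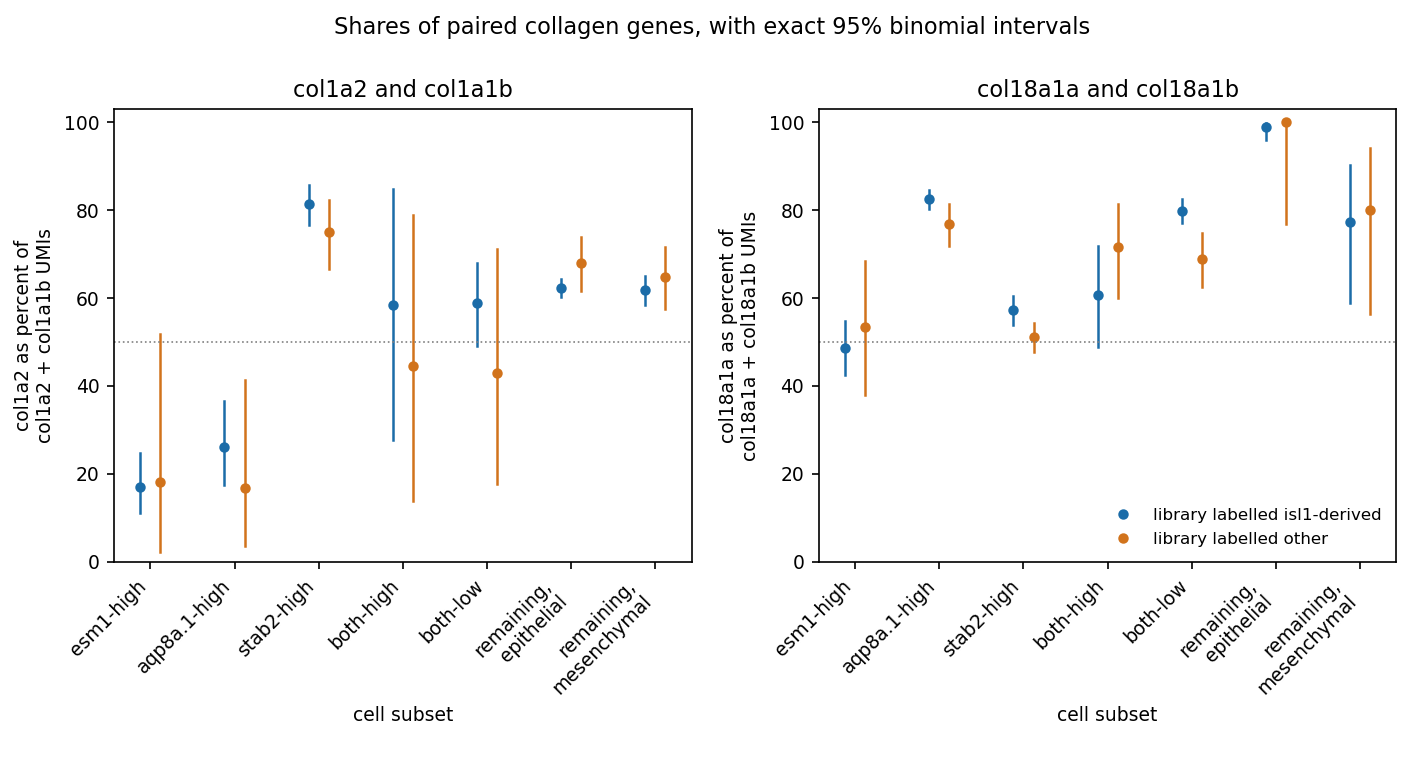
Share of col1a2 in the summed UMIs of col1a2 and col1a1b, and of col18a1a in those of col18a1a and col18a1b (percent, with exact 95% binomial intervals), in the 5 endothelial subsets and in the remaining epithelial and mesenchymal cells of each library. The col1a2 share is 81.4% and 75.0% in stab2-high cells and at most 26.1% in esm1-high and aqp8a.1-high cells.

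The type XI pair differed by cell class. Of the UMIs of col11a1a and col11a1b together, col11a1b held 90.2% and 90% in endothelial cells 2.2% and 4.3% in epithelial and 89.1% and 50.5% in mesenchymal cells. Within the endothelial subsets it held 97.4% (94.9% to 98.9%) and 91.7% in stab2-high and 71.4% (58.7% to 82.1%) and 83.3% in aqp8a.1-high cells. The level of col11a1b was alike between the libraries in stab2-high cells, at 87.6 and 82.7 CPM. In aqp8a.1-high cells it depended on the library, at 18.3 and 76.6 CPM, from 45 and 35 UMIs. The ratio of stab2-high to aqp8a.1-high cells was therefore 4.79 (3.49 to 6.70) in one library and 1.08 (0.753 to 1.59) in the other. In the small subset high in both aqp8a.1 and stab2, col11a1b held 38 of 253469 UMIs (150 CPM) and 17 of 155260 UMIs.

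Between the endothelial cells of the libraries most collagens were within a factor of 2. Of 22 measured collagens 2 were higher (2.2% of all genes) and 3 lower (2.01%) in the library labelled isl1-derived. The higher ones were col2a1a at 4.38 against 1.94 CPM, a ratio of 2.26 (1.06 to 5.52), and col5a2a at 5.38 against 2.43 CPM, a ratio of 2.22 (1.13 to 4.86). The lower ones were col19a1 with a ratio of 0.364 (0.213 to 0.621), col27a1b with 0.376 (0.250 to 0.565) and col6a1 with 0.397 (0.245 to 0.644). All 5 were below 13 CPM in both libraries. Among the collagens of higher level, col18a1b had the lowest ratio, 0.556 (0.501 to 0.616).

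The libraries differ in their mix of subsets, since stab2-high cells were 441 of 1322 endothelial cells in the library labelled isl1-derived and 372 of 579 in the library labelled other. Within subsets, compared after the values were seen, 0 of 13 collagens passed a factor of 2 in either direction in stab2-high cells (0.64% and 0.908% of all genes higher and lower) and 0 of 5 in esm1-high cells (5.01% and 3.59%). The count of 0 in stab2-high cells does not mean equal levels. There col1a2 lay just short of a factor of 2, at 71.8 and 35.9 CPM (245 and 96 UMIs). The level of col5a1 in these cells was also close to that factor, and higher in the same library. In aqp8a.1-high cells 0 of 10 were higher (2.7%) and 3 were lower (2.59%), namely col11a1b with a ratio of 0.239, col12a1a with 0.380 and col5a1 with 0.427. The ratio of col18a1b stayed below 1 within stab2-high (0.663) and aqp8a.1-high cells (0.532). With 1 library per label, sort and library cannot be told apart.

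The genes that fold, cut, cross-link, bind and break down collagen were described from lists. The breakdown list also holds inhibitors of breakdown (the timp genes and reck), so its counts mix proteases with their inhibitors. In the comparison of endothelial with blood cells 14 of 19 measured biosynthesis genes were higher in both libraries, as were 2 of 2 cross-linking genes, 8 of 8 other basement membrane genes, 5 of 5 collagen receptor genes and 8 of 8 breakdown genes, and none was lower, where 37.2% and 13.5% of all genes were. Their median log2 ratios were 3.09 and 2.86, 4.1 and 3.57, 4.67 and 3.82, 2.76 and 3.71, and 3.33 and 3.79, in that order, against 0.45 and 0.55 over all genes. The collagen chaperone gene serpinh1a was at 147 and 123 CPM in endothelial and 3.40 and 1.05 CPM in blood cells. The disulphide isomerase gene p4hb, which serves many secreted proteins, was within a factor of 2, at 158 and 148 CPM in endothelial and 123 and 117 CPM in blood cells.

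Other basement membrane genes had levels like those of the type IV chains in endothelial cells, with the laminin chain gene lama4 at 209 and 210 CPM, the heparan sulphate proteoglycan gene agrn at 187 and 148 CPM and the collagen-binding sparc at 208 and 191 CPM. The collagen-binding integrin gene itga1 reached 404 and 543 CPM, and the discoidin domain receptor gene ddr1 42.9 and 37.4 CPM. The metalloproteinase inhibitor gene timp2b was at 512 and 890 CPM and the membrane-bound metalloproteinase gene mmp14b at 140 and 142 CPM.

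Between stab2-high and aqp8a.1-high cells the lysyl oxidase genes, whose products cross-link collagen, went different ways. The ratio of loxl3b was 3.05 (2.56 to 3.64) and 2.33 (1.63 to 3.45), and that of loxl2b was 0.032 (0.010 to 0.078) and 0.032 (0.0060 to 0.112), from 45.1 and 35 CPM in aqp8a.1-high cells. In the library labelled other the UMIs of loxl2b were under the minimum of 50, so the counts below leave it out. The ratio of timp2b was 3.54 (3.26 to 3.85) and 3.67 (3.11 to 4.36). Over the lists, 1 of 2 cross-linking genes and 2 of 7 genes of the breakdown list were higher in both libraries. The inhibitor gene timp2b was among those of the breakdown list. Lower in both were 1 of 17 biosynthesis, 1 of 8 basement membrane and 1 of 5 receptor genes. Of all genes 8.69% were higher and 3.34% lower.

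The genes most like col4a1 were sought by Pearson's r of log levels over 14 sums of cell class and library, among 6373 genes. The sums share 2 libraries and their depths, so r is a description only. The nearest were PKN2 (0.989), xirp2a (0.988), cdh5 (0.987), which is itself a gate gene, lama4 (0.987), vangl2 (0.987) and col4a2 (0.986), and kdrl was close behind (0.984). Among the other collagens r was 0.91 for col18a1b, 0.74 for col8a2, 0.70 for col18a1a and -0.26 for col1a2.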

How the data were processed

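The authors deposited UMI counts for each gene and cell barcode, as whole numbers with no normalization. Cell Ranger 5.0.0 and genome build GRCz11 are named in the submitters' processing notes, while the matrix headers give version 5.0.1. The reagents were those of 10x Genomics for RNA 3′ ends, per the labels' protocols, and the sample labels gave the groups, 1 library each. No barcode held fewer than 500 and 519 UMIs (libraries labelled isl1-derived and other, of 2072 and 730 barcodes and 26865577 and 5698957 UMIs), so they were already called cells.

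Barcodes with under 500 genes or at least 10% mitochondrial UMIs (42 and 21) and called doublets (15 and 1, Scrublet in scanpy 1.11.5) were removed. The low doublet number in the second library leaves undetected doublets possible. The gates read UMIs per 10000 of the cell. The blood gate and the marker panels also asked for at least 3 UMIs, and panels for 5 per 10000. Subset gates were 10 (esm1), 50 (aqp8a.1) and 10 (stab2). Within the score range of 8 to under 12 of the endothelial gate lay 65 and 18 cells. Sums of UMIs per library and class were scaled to CPM over all genes. Poisson, binomial (Clopper-Pearson) and conditional binomial intervals are exact, at 95%. Log2 ratios carry 0.5 added to each count. The collagens and the other gene lists were chosen with earlier results of these data known. Genes were named by rule: the 6 with the highest mean endothelial CPM, the 3 highest in the remaining cells, and the leading measured genes of each comparison and direction by mean log2 ratio. All other genes were picked with their values in view.

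The calculation of ratios was checked on simulated Poisson counts of class sums. That is the model the intervals assume, so the spread between cells and the smaller classes were not checked. For endothelial over blood cells 12560 and 8309 genes were measured, most of them left unchanged. Of the genes raised or lowered 4-fold 100% were recovered, and 0.089% and 1.27% of unchanged genes passed a ratio of 2. Alternatives included TMM scaling (edgeR 4.0.16), other gates, filters and minimums, thinning, and leaving out the 3 leading cells. Python 3.11.15 and R 4.3.3 were used. Of the listed genes, 29 of 37 biosynthesis, 12 of 13 cross-linking, 20 of 21 basement membrane, 16 of 16 receptor and 21 of 23 breakdown genes were in the feature list.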

Additional observations from a re-analysis of the deposited data

Results flagged for a closer look

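The type V chain gene col5a1 went opposite ways between stab2-high and aqp8a.1-high endothelial cells in the 2 libraries. Its log2 ratio was 0.52 in the library labelled isl1-derived (92 and 46 UMIs, a CPM ratio of 1.44 with an interval of 1.00 to 2.1) and -1.68 in the library labelled other (37 and 20 UMIs, 0.316 with 0.179 to 0.575). The difference itself was not tested, since each label has 1 library. In the first library 3 cells held 40.2% of the stab2-high UMIs, and in the second 3 cells held 55% of the aqp8a.1-high UMIs. Without these leading cells, an alternative added after seeing the data, the log2 ratios were 0.05 and -1.15.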

How the results depend on the processing

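No paired analysis was possible because each group holds 1 library. Over 18 alternative settings 212 counts and shares stayed within their range and 42 moved, and of the single gene values 695 stayed, 120 moved and 1 reversed. That one was col14a1a in haemogenic over endothelial cells of the library labelled other, at -0.95 (log2) without the 3 leading cells; the cause was not tested here or below. The haemogenic comparison was the least stable. Its count of higher collagens (1) became 0 with TMM scaling, doublets kept, an endothelial gate of 5, a blood gate of 10, a minimum of 200 UMIs, a ratio of 3 or without the 3 leading cells, 2 with an endothelial gate of 20 or the mean of CPM per cell, and 3 with a minimum of 20 UMIs. Its count of lower ones (5) became 2 with a blood gate of 3, a minimum of 200 or a ratio of 3, 1 when thinned and 8 without the leading cells.

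Endothelial over blood: 14 higher became 6 when thinned or with a minimum of 200, and 0 lower became 1 with a minimum of 20. Endothelial over remaining: 4 higher became 2 with a gate of 20, and 13 lower became 3 when thinned, 5 with a minimum of 200 and 4 without the leading cells. For stab2-high over aqp8a.1-high, 1 higher became 0 when thinned or with a minimum of 200 and 2 with subset gates doubled, and 3 lower became 5 at a ratio of 1.5 and 1 at 3. Between libraries, 2 higher became 0 when thinned, with a minimum of 200, at a ratio of 3 or without the leading cells, and 3 lower became 0 when thinned, with a minimum of 200 or at a ratio of 3, and 9 at 1.5. Thinning and a higher minimum leave fewer genes measured.

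Of endothelial collagen UMIs, the type IV share moved to 43.7% with a gate of 20, 41.3% as a mean of CPM per cell (isl1-derived) and 40.8% when thinned (other). That of types VIII, XV and XVIII moved to 36.6% thinned and 37% per cell (isl1-derived), and the fibrillar share to 12.8% and 12.7% per cell. TMM shifted every log2 ratio by -0.62 and -0.07 (endothelial over blood), -0.03 and 0.28 (over remaining), -0.20 and -0.42 (haemogenic), -0.02 and 0.11 (stab2-high) and -0.10 and -0.11 (esm1-high). The share of higher among called genes then went from 66.1% to 46.4% (over blood, isl1-derived), 67.4% to 78.0% (over remaining, other), 36.5% to 23.6% and 27% to 14.3% (haemogenic), and 46.2% to 35.6% and 42.7% to 30.3% (esm1-high). With TMM, 16 of 21 and 14 of 14 collagens were still higher in endothelial than in blood cells.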
